A study of Mus musculus with 6 samples.

Results

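The AP-1 and immediate early genes Fos, Fosb, Fosl2, Jun, Junb, Jund, Egr1, Egr2, Atf3 and Ier2 were followed in inflammatory monocytes of the CNS. These 10 genes were chosen by name out of 54232 in the deposited files, and all 10 were among the 11254 genes that passed the filter on low counts. RNA-seq was done on 6 libraries of Ly6Chi monocytes (GFP-CD45+CD11b+Ly6ChiLy6G-), 3 of WT cells (CD45.1) and 3 of Ifnar1-/- cells (CD45.2), which lack a subunit of the type I interferon receptor. Both kinds of cells came from mixed bone marrow chimeras, GFP+ mice that were lethally irradiated and then given WT and Ifnar1-/- marrow in equal parts. EAE (experimental autoimmune encephalomyelitis, a mouse model of multiple sclerosis) was induced 6 to 7 weeks later by immunization with a myelin peptide, 30000 IU of IFN-β was given every day, and cells were sorted at the peak of disease. Both groups therefore shared the host, the disease and the rIFN-β treatment and differed in genotype and in the CD45 allele of the donor. No library of untreated mice was analysed here, so the comparison is of monocytes that can and cannot respond to IFN-β directly, not of treated and untreated mice. The labels give no age of the animals. The study describes 3 recipient mice, each with marrow of both kinds. Animals may therefore be shared between the groups, and p-values measure the spread between these libraries.

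AP-1 is a family of transcription factors made of pairs of basic leucine zipper proteins. A FOS protein (FOS, FOSB, FOSL2) pairs with a JUN protein (JUN, JUNB, JUND), and JUN proteins also pair with each other or with ATF proteins such as ATF3. Most of these genes, together with Egr1, Egr2 and Ier2, are immediate early genes: MAP kinases, SRF with its partners and CREB switch them on within minutes of a stimulus, without new protein synthesis, and the transcripts decay soon after. In monocytes and macrophages they answer to adhesion, cytokines and microbial products, and they are also known to come on while tissue is dissociated and cells are sorted.

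The promoters of 6 of the genes are shown: Fos, Fosb, Atf3, Junb and Egr2, which are the 5 that hold the letters TGACG, and Jun, which holds none of the letters searched. They were chosen for these matches, and Fosl2 and Jund, the others with a window, are described but not shown. Each window is the stretch of 250 bases before the RefSeq start in GRCm38.p6, written 5′ to 3′ on the strand of the gene. Fos is at chr12:85473640-85473889 on the plus strand, Fosb at chr7:19310046-19310295 on the minus strand, Atf3 at chr1:191183334-191183583 on the minus strand, Junb at chr8:84978749-84978998 on the minus strand Egr2 at chr10:67537619-67537868 on the plus strand and Jun at chr4:95052223-95052472 on the minus strand. Capitals mark TGACG or its reverse complement CGTCA, the TATA box letters TATAAA, and the CArG box, the sequence read by SRF.
Fos: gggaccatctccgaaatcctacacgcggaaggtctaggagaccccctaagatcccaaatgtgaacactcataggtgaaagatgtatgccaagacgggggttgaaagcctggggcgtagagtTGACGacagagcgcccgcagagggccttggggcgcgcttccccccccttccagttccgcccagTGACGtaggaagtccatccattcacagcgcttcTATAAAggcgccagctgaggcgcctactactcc
Fosb: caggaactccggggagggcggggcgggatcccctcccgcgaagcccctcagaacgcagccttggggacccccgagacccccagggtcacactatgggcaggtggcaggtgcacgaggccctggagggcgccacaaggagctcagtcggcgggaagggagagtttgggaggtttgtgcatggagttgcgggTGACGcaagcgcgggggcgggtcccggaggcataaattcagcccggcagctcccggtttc
Atf3: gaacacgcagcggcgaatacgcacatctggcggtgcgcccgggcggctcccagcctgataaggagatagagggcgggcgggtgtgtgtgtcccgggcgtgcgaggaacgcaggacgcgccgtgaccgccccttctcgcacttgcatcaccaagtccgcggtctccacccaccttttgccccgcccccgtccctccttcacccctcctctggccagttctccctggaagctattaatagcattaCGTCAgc
Junb: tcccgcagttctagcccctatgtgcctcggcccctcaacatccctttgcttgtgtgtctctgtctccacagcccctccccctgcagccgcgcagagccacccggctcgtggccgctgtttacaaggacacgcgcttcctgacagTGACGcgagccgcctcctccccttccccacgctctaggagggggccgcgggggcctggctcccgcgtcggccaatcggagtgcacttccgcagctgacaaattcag
Egr2: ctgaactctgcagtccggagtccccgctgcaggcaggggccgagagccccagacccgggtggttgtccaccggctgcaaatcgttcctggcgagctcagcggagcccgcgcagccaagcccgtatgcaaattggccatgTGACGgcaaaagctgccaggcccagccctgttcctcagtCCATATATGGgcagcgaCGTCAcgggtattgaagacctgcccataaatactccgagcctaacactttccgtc
Jun: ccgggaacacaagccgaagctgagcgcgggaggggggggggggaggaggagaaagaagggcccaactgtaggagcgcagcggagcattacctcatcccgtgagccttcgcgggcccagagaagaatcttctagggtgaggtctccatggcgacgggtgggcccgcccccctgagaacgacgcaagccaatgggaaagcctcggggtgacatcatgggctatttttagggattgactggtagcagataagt

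TGACG is the core of the cAMP response element, the site that CREB and ATF proteins read. In Fos it stood at positions -129 to -125 and -66 to -62 from the start, in Fosb at -60 to -56, in Junb at -106 to -102, in Atf3 at -7 to -3 and in this Egr2 window at -111 to -107 and -55 to -51. RefSeq windows were at hand for 8 of the 10 genes, and 5 of those 8 held TGACG on either strand, against 17.8% of all 32851 promoter windows. The full cAMP response element TGACGTCA, which contains TGACG, was in none of the 8 and in 1.55% of all windows. The AP-1 site in the exact letters TGANTCA was in none of the 8 and in 6.75% of all windows. Sites with other letters or spacing were not searched, such as TGACATCA, which is in the Jun window. The counts therefore do not show that a window lacks an AP-1 site. A CArG box stood in the Egr2 windows alone, at -72 to -63 in the one shown, against 1.47% of all windows. Only these windows of 250 bases were searched, and Egr1 and Ier2 had none. The count therefore does not show that the other genes lack a CArG box. TATAAA stood in Fos at -33 to -28 and in 12.4% of all windows. For the interferon pathway, GAAANNGAA, the core of the interferon-stimulated response element, was in windows of Fosl2, Jund and Egr2 and in 7.13% of all windows. The gamma-activated sequence TTCNNNGAA, also searched, was in none of the 8 and in 7.02% of all windows. Both strands were searched, and several Egr2 windows overlap. A gene was counted where any of its windows held the letters, while the percentages are of single windows. The counts of genes and the percentages are therefore not on the same footing. The RefSeq start of Jund lies 1210 bases before the GENCODE start, so its window is not shown.

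The libraries held 4531782 to 7321380 expected counts for WT and 5442568 to 6916101 for Ifnar1-/- monocytes, and each of the 10 genes had from 145 to 8919 counts in every library. Levels are CPM, counts scaled to the size of the library and its TMM factor, in the order of libraries 1, 2 and 3 of each group. Ifnar1 itself had 153, 126 and 111 CPM in WT and 110, 102 and 109 CPM in Ifnar1-/- monocytes (log2 fold change 0.28, adjusted p = 0.36, edgeR). Counts over the whole gene do not show which exons are read, so the labels were checked with 14 interferon-stimulated genes, of which 12 were called higher in WT (median log2 fold change 4.28). Oas1a, an antiviral gene and the one with the smallest p, had 178, 144 and 127 CPM in WT and 5.96, 6.10 and 5.15 CPM in Ifnar1-/- monocytes.

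Jund was the only one of the 10 genes whose level passed the test between genotypes, and it was upregulated in WT monocytes. The log2 fold change, WT over Ifnar1-/-, was positive for all 10, with values from 0.12 for Egr2 to 0.95 for Jund, but turned negative for Fosl2, Junb, Egr2 and Ier2 once GC content and length were corrected for. A gene was called where its p, adjusted over all genes tested by the edgeR quasi-likelihood test, did not exceed 0.05 and its fold reached 1.5. This rule called 1.67% of the 11254 genes higher in WT and 0.462% lower. Of the 10 genes 1 was called higher and 0 lower (1 and 0 also with DESeq2 and limma-voom), and 3 had an unadjusted p under 0.05, all of them higher in WT. The share of all genes tested with such an unadjusted p is not given here. This count and those of the lists below therefore have no background to be read against. The median log2 fold change of the 10 was 0.45 against -0.01 for all genes tested, without correction for GC content. All 10 lie above 50% GC, where the medians of all genes tested were 0.06, 0.21 and 0.32 in bands of rising GC content. In 2 of the 10, Jun and Jund, every WT library lay above every Ifnar1-/- library, which was the case for 11.1% of all genes tested.

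**Figure D1:**
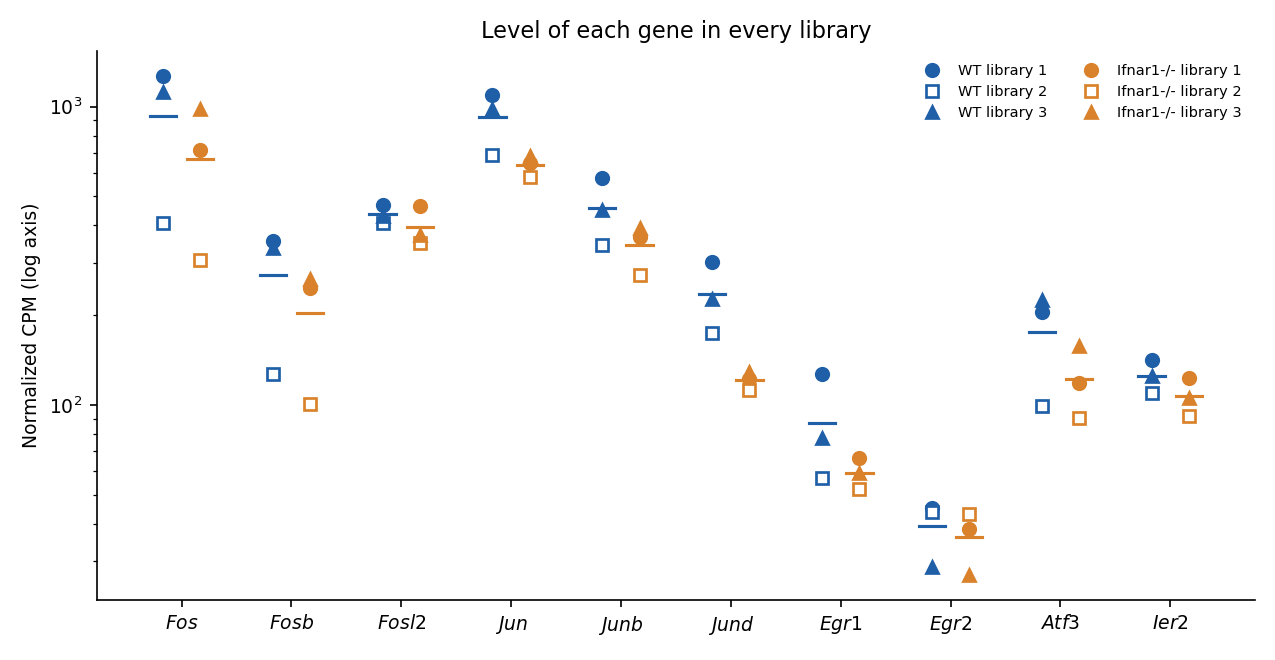
Normalized CPM on a log axis of the 10 genes in each of the 6 libraries, with WT in blue, Ifnar1-/- in orange, 1 symbol for each library number and a line at the mean of each group. The groups are separate for Jun and Jund, the open squares of the libraries numbered 2 are the lowest of both groups for every gene except Egr2, and Fos spans from 306 to 1269 CPM.

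The FOS genes supply the partner of AP-1 that cannot pair with itself. Fos (ENSMUSG00000021250.13, chr12:85473890-85477273, plus strand, 4 exon blocks) had 1269, 407 and 1118 CPM in WT and 716, 306 and 981 CPM in Ifnar1-/- monocytes. The groups overlapped, and library 2 was far below the other two in both. The log2 fold change of Fos was 0.48 with an SE of 0.45 (95% interval -0.51 to 1.47, adjusted p = 0.614). Fosb (ENSMUSG00000003545.3, chr7:19302696-19310051, minus strand) encodes a close relative whose truncated form lasts long in the cell. It had 356, 127 and 336 CPM in WT and 247, 101 and 264 CPM in Ifnar1-/- monocytes, the same low library in each group. Its log2 fold change was 0.42 with an SE of 0.40 (95% interval -0.48 to 1.31, adjusted p = 0.63). Fosl2 (ENSMUSG00000029135.10, chr5:32135801-32157842, plus strand) encodes FRA-2, a FOS protein that is made later and more steadily. It had 466, 409 and 430 CPM in WT and 465, 349 and 371 CPM in Ifnar1-/- monocytes, with groups that overlapped and little spread between libraries. Its log2 fold change was 0.14 with an SE of 0.16 (95% interval -0.21 to 0.49, adjusted p = 0.696).

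The JUN genes supply the partner of the FOS proteins. Jund (ENSMUSG00000071076.6, chr8:70698949-70700616, plus strand, a single exon) encodes the JUN protein that most cells make at rest. It had 302, 175 and 227 CPM in WT and 122, 112 and 129 CPM in Ifnar1-/- monocytes, means of 235 ± 64.2 and 121 ± 8.68 (SD, n = 3). All WT libraries were above all Ifnar1-/- libraries, and the spread was wider in WT. The fold was 1.94 (log2 fold change 0.95, SE 0.20, 95% interval 0.52 to 1.39, adjusted p = 0.0349). An exact two-sided permutation test over the libraries gave p = 0.1, the smallest that 3 against 3 can give. In bulk libraries such as these, less RNA per cell and fewer cells that express a gene cannot be told apart. The call was lost when any 1 of 5 of the 6 libraries was left out. Without WT library 1 the log2 fold change was 0.74 with an adjusted p of 0.0545, without WT library 3 1.00 and 0.0867, and without Ifnar1-/- library 1, 2 or 3 it was 0.98, 0.92 and 1.02 with adjusted p of 0.154, 0.108 and 0.11. The call held without WT library 2 (1.14, adjusted p = 0.0146).

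Jund is also the gene of the 10 with the highest GC content, 67.1% over its annotated transcripts, and fold changes between these libraries moved with GC content. The median log2 fold change was -0.17 over the 2872 genes tested with at most 45% GC, -0.07 over 3148 genes from 45% to 50%, 0.06 over 2939 genes from 50% to 55%, 0.21 over 1960 genes from 55% to 60% and 0.32 over 323 genes above 60%. Fos, Fosl2, Egr2 and Atf3 are in the 50% to 55% band, Fosb, Jun and Egr1 in the 55% to 60% band, and Junb, Jund and Ier2 above 60%. The 14 genes tested with a higher GC content than Jund had a median of 0.13, and 0 of them were called higher. Of the 323 genes above 60% GC 5 were called higher, so 14 genes are too few to read anything from that count. With offsets for GC content and length in each library, the log2 fold change of Jund was 0.41 (adjusted p = 0.351). The same offsets took Jun from 0.54 to 0.23, Egr1 from 0.56 to 0.20 and Fosb from 0.42 to 0.04, and left Fos at 0.49 and Atf3 at 0.61. How far base composition sets the difference in Jund was not tested beyond this correction.

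**Figure D2:**
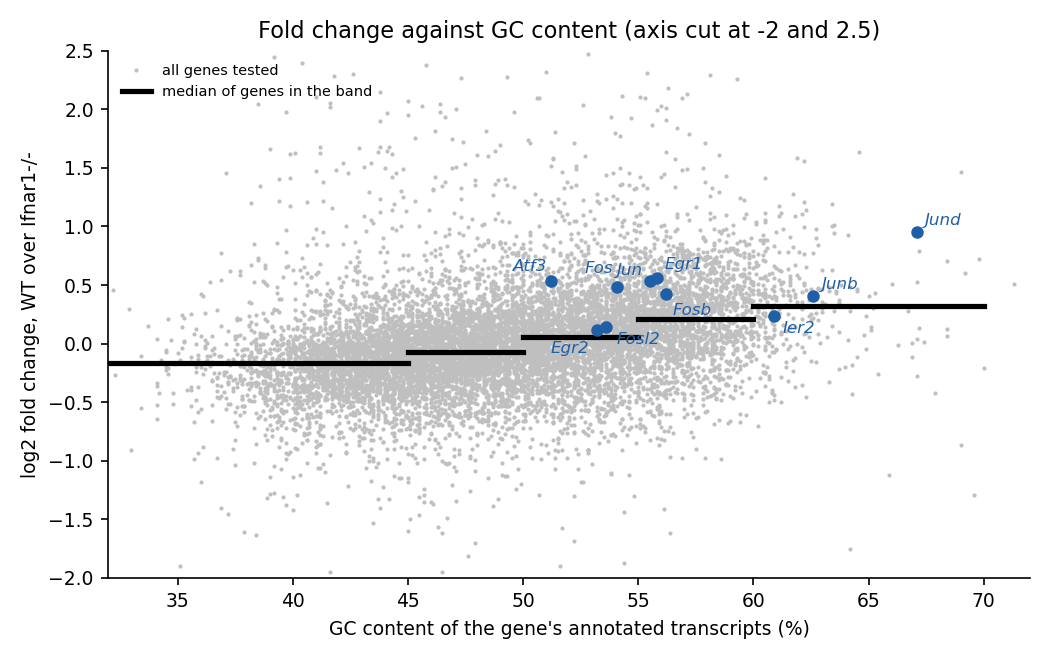
Log2 fold change, WT over Ifnar1-/-, of each gene tested (grey) against the GC content of its annotated transcripts in percent, with the 10 genes in blue and black bars at the median of each GC band. The medians go from -0.17 below 45% GC to 0.32 above 60%, and Jund, at 67.1% GC, lies above its band while Ier2 lies below the same one.

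Jun (ENSMUSG00000052684.4, chr4:95049034-95052222, minus strand, a single exon) encodes c-JUN, the partner with the strongest transactivation. It had 1096, 686 and 983 CPM in WT and 645, 580 and 684 CPM in Ifnar1-/- monocytes. The lowest WT library was barely above the highest Ifnar1-/- library. The log2 fold change was 0.54 with an SE of 0.19 and a 95% interval of 0.11 to 0.96, which leaves out 0, but its adjusted p over all genes tested was 0.186 (edgeR). With offsets for GC content and length the log2 fold change of Jun was 0.23 (adjusted p = 0.638). Junb (ENSMUSG00000052837.6, chr8:84974484-84978718, minus strand) encodes a weaker activator that often opposes c-JUN. It had 575, 344 and 450 CPM in WT and 365, 273 and 393 CPM in Ifnar1-/- monocytes, with overlapping groups. Its log2 fold change was 0.41 with an SE of 0.21 (95% interval -0.06 to 0.88, adjusted p = 0.344).

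Several of these genes overlap a gene on the other strand, and the strand setting of the counting is not given in the sources used here. The antisense gene Junos, over Jun, had 7.23 to 10.2 CPM in WT and 8.70 to 12.3 CPM in Ifnar1-/- monocytes. Gm11175, antisense to Jund, had at most 17 counts in a library, against 662 to 2125 for Jund. Prdx2, which overlaps Junb on the other strand, had 55.7 to 58.2 CPM in WT and 58.3 to 65.1 CPM in Ifnar1-/- monocytes. Gm24748, which overlaps Atf3 on the other strand, was at 0 in all 6 libraries. All 4 neighbours were thus well below the gene they overlap.

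Egr1 and Egr2 encode zinc finger proteins that bind GC-rich sites. Egr1 (ENSMUSG00000038418.7, chr18:34859823-34864984, plus strand) had 127, 57.2 and 77.6 CPM in WT and 66.7, 52.2 and 59.0 CPM in Ifnar1-/- monocytes. WT library 1 stood above the rest, and the groups overlapped. The log2 fold change of Egr1 was 0.56 with an SE of 0.25 (95% interval 0.00 to 1.13, adjusted p = 0.28), and it was 0.19 without WT library 1. Egr2 (ENSMUSG00000037868.15, chr10:67535475-67542188, plus strand) encodes the family member tied to macrophage and lymphocyte differentiation. It had 45.2, 43.8 and 28.6 CPM in WT and 38.3, 43.0 and 27.0 CPM in Ifnar1-/- monocytes. Here library 3, not library 2, was the lowest in both groups. Its log2 fold change was 0.12 with an SE of 0.22 (95% interval -0.36 to 0.60, adjusted p = 0.821).

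Atf3 (ENSMUSG00000026628.13, chr1:191170296-191218039, minus strand) encodes a stress-induced AP-1 partner that restrains inflammatory genes in macrophages. It had 205, 99.3 and 224 CPM in WT and 119, 90.5 and 157 CPM in Ifnar1-/- monocytes. The groups overlapped, with library 2 lowest in both. The log2 fold change of Atf3 was 0.53 with an SE of 0.29 (95% interval -0.12 to 1.18, adjusted p = 0.371). Ier2 (ENSMUSG00000053560.4, chr8:84661331-84662852, minus strand, a single exon) encodes a small nuclear protein whose role is less well known. It had 141, 110 and 126 CPM in WT and 123, 92.0 and 105 CPM in Ifnar1-/- monocytes, groups that overlapped with a narrow spread. Its log2 fold change was 0.23 with an SE of 0.16 (95% interval -0.12 to 0.59, adjusted p = 0.483).

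**Figure D3:**
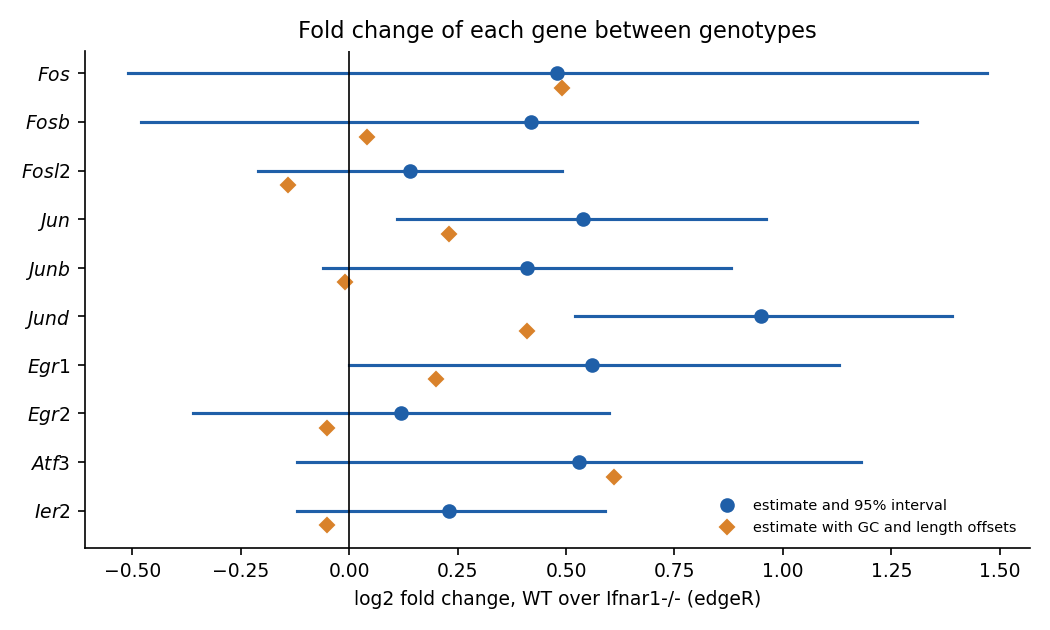
Log2 fold change, WT over Ifnar1-/-, of the 10 genes by edgeR, with points at the estimate, bars for the 95% interval and diamonds for the estimate with GC content and length offsets. All 10 points are above 0, the interval of Fos runs from -0.51 to 1.47, and with the offsets Fosl2, Junb, Egr2 and Ier2 fall below 0 and Jund moves from 0.95 to 0.41.

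The spread between libraries of one genotype differed widely among the 10 genes. The SD within groups on the log2 scale was 0.88 for Fos, larger than in 98.5% of all genes tested, 0.80 for Fosb (97.8%), 0.53 for Atf3 (91.1%) and 0.43 for Egr1 (83.7%). It was 0.17 for Fosl2, larger than in only 25.5% of genes, and 0.20 for Ier2 (35.6%). The highest library held 3.12 times the lowest for Fos in WT and 3.21 times in Ifnar1-/- monocytes, more than the fold of 1.40 between genotypes. The intervals of Fos and Fosb accordingly ran from a decrease to more than a doubling.

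The lowest library was mostly the same. In 9 of the 10 genes, all but Egr2, the library numbered 2 was the lowest of its group in both genotypes, which was the case for 11.5% of all genes tested. The ratio of same-numbered libraries, WT over Ifnar1-/-, was 1.77, 1.33 and 1.14 for Fos, and 2.48, 1.56 and 1.76 for Jund. The study does not say whether libraries with the same number came from the same mouse. Without both libraries numbered 2, the log2 fold change was 0.51 for Fos (adjusted p = 0.267), 0.45 for Fosb (0.21), 0.65 for Atf3 (0.13) and 1.09 for Jund (0.0532), and 0 of the 10 genes were called by edgeR. Other genes moved in the same way: 18 of 26 other immediate early genes, 10 of 25 targets and 3 of 10 phosphatase and corepressor genes tested were lowest in library 2 of both groups, but only 2 of 20 related bZIP genes, 3 of 23 MAP kinase genes and 2 of 12 heat shock genes. Hspa1a, a heat-inducible chaperone, went the other way, with 346, 519 and 386 CPM in WT and 111, 389 and 157 CPM in Ifnar1-/- monocytes. It was highest in library 2 of each group. This count, the comparison of lists by it and the naming of Hspa1a were chosen after the values were seen.

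The genes with the pattern most like that of Fos were found by the root mean square difference of mean-centred log2 CPM over the 6 libraries. Fosb was the nearest of 11253 genes (0.13), followed by Ccl3 (0.16) and Dusp1 (0.21), where the median gene was at 0.80. Ccl3, an inflammatory chemokine, had 28.9, 8.93 and 25.7 CPM in WT and 14.7, 6.95 and 16.6 CPM in Ifnar1-/- monocytes. Dusp1, a phosphatase that switches MAP kinases off, had 1142, 499.9 and 1114 CPM in WT and 1001, 322 and 1015 CPM in Ifnar1-/- monocytes. Both were thus low in library 2 of each group, as Fos was. Among the 10 genes, Atf3 ranked 22nd, Junb 107th, Egr1 183rd, Jun 220th, Jund 486th, Ier2 663rd, Fosl2 1579th and Egr2 9503rd in likeness to Fos. With TPM in place of CPM, 6 of the 10 genes nearest to Fos were the same.

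Jun had another set of neighbours. The nearest were Cfap43, a cilia gene (0.06), Trim26, a ubiquitin ligase of the antiviral response (0.06), and Cebpa, a myeloid transcription factor (0.08), against 0.42 for the median gene. Cebpa had 208, 149.6 and 188 CPM in WT and 129, 119 and 146 CPM in Ifnar1-/- monocytes, and Trim26 had 56.3, 35.3 and 47.4 CPM in WT and 29.0, 28.5 and 33.8 CPM in Ifnar1-/- monocytes. Cfap43 had 43.3, 28.1 and 42.2 CPM in WT and 25.0, 22.4 and 28.9 CPM in Ifnar1-/- monocytes. None of the 3 was called (adjusted p = 0.172 for Cebpa, 0.128 for Trim26 and 0.159 for Cfap43, edgeR). Junb was the member closest to Jun, at rank 41 (0.12), and Fos was at rank 8547 (0.54). This is the same distance at which Jun ranked 220th from Fos, so the rank depends on the gene of reference. Distances were not scaled for the spread of a gene, which was wide for Fos, and so do not compare shape alone. Many genes lie close to Jun, and with TPM only 3 of the 10 nearest were the same.

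Per transcript length, by the deposited TPM, Fos was the most abundant of the 10. Its mean over the 6 libraries was 686 TPM, above the next gene in 6 of 6 libraries. Jun (235 TPM) and Junb (226 TPM) followed and could not be ordered, since Jun was the higher in 4 of 6 libraries. Atf3 (125 TPM) was below Junb in 6 of 6 libraries, while the place of Jund (108 TPM) depended on the group. Jund had 142 ± 18.8 TPM in WT and 74.4 ± 2.84 TPM in Ifnar1-/- monocytes (SD, n = 3). It was above Fosl2 (93.8 TPM) in all 3 WT libraries and below it in all 3 Ifnar1-/- libraries. Jund was also above Atf3 in WT libraries 1 and 2 and below it in the other 4. Fosl2 was above Ier2 (79.2 TPM) in 6 of 6 libraries, Ier2 above Fosb (68.4 TPM) in only 3, and Fosb above Egr1 (19.4 TPM) in 6. Egr2 was the lowest with 13.6 TPM, and in 5 of 6 libraries it was below Egr1. Fos thus stood higher than 98.7% of all genes tested and Egr2 higher than 56.3%. With CPM per kilobase of effective length, 6 of the 10 genes kept their place in this order.

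**Figure D4:**
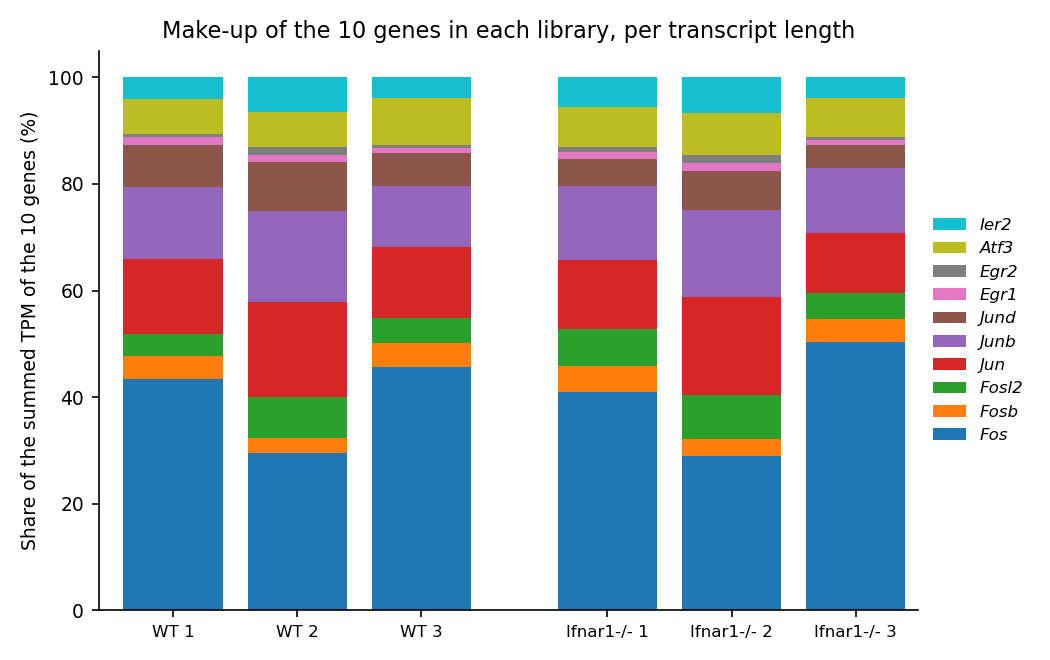
Share in percent of each of the 10 genes in their summed TPM, 1 bar for each library. Fos takes 29.4% and 28.9% in the libraries numbered 2 and from 41.0% to 50.3% in the others. The Jund share is 6.29% to 9.25% in WT and 4.32% to 7.25% in Ifnar1-/- libraries, so the groups overlap.

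The make-up of the 10 genes is a measure that does not depend on how libraries are scaled to each other. The share of Fos varied more between libraries of a group than between the group means. The summed TPM was 1859, 1317 and 2528 in WT and 1421, 1050.2 and 1756 in Ifnar1-/- monocytes. Fos made up 43.5%, 29.4% and 45.6% of it in WT and 41.0%, 28.9% and 50.3% in Ifnar1-/- monocytes, with means of 39.5% ± 8.78 and 40.1% ± 10.7 (SD, n = 3). The FOS genes held 1.47, 0.903 and 1.76 times the TPM of the JUN genes in WT and 1.65, 0.957 and 2.13 times in Ifnar1-/- monocytes. JUN transcripts thus outnumbered FOS transcripts, per length, in library 2 of both groups and in no other. Jund made up 7.82%, 9.25% and 6.29% of the summed TPM in WT and 5.01%, 7.25% and 4.32% in Ifnar1-/- monocytes, and these groups overlapped. The exact permutation test gave p = 0.2 for this share, the smallest of the 11 quantities tested, before adjustment. Within the JUN genes alone the groups did not overlap for Jund. It held 22.1%, 20.9% and 20.2% of their TPM in WT and 15.6%, 17.2% and 15.5% in Ifnar1-/- monocytes. Junb held 38.5%, 38.8% and 36.9% in WT and 43.4%, 38.9% and 43.9% in Ifnar1-/- monocytes, groups that were barely apart. Jun held 39.4%, 40.3% and 42.8% in WT and 40.9%, 43.9% and 40.6% in Ifnar1-/- monocytes, and these groups overlapped. These shares within the JUN genes were not tested. They set Jund, at 67.1% GC, against Junb (62.6%) and Jun (55.5%), and were not corrected for GC content.

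The upstream cascade and the partners of AP-1 showed few differences. Of 20 related bZIP genes tested 1 was called, Maf, which encodes the large MAF factor of macrophages and was higher in WT with 110, 80.1 and 80.6 CPM against 48.3, 58.0 and 43.8 CPM (log2 fold change 0.85, SE 0.17, adjusted p = 0.0336). This call was lost without any 1 of the libraries WT 1, WT 3, Ifnar1-/- 1 and Ifnar1-/- 3, without both libraries numbered 2, and by limma on TPM. The median of these 20 was 0.08. Of 23 MAP kinase cascade genes 0 were called by edgeR, DESeq2 or limma-voom, and 1 had an unadjusted p under 0.05 (median 0.06). The smallest p-values were those of Map3k1, a kinase upstream of JNK (log2 fold change 0.48, adjusted p = 0.177), and Mapk7, which encodes ERK5 (0.49, adjusted p = 0.284). Of the 6 genes for SRF and its partners 0 were called by the same tools, and 1 had an unadjusted p under 0.05 (median 0.23), with Mrtfa, an actin-controlled partner of SRF, at 0.56 (adjusted p = 0.142) and Elk3 at 0.26 (adjusted p = 0.477).

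Other genes of the immediate early response were not called by edgeR. Of 28 such genes 26 were tested and 0 called by edgeR or limma-voom, 2 were called by DESeq2, and 6 had an unadjusted p under 0.05, all higher in WT (median log2 fold change 0.21). Ier5, a relative of Ier2, had 222, 173 and 221 CPM in WT and 144, 117 and 145 CPM in Ifnar1-/- monocytes. These groups did not overlap, but the adjusted p was 0.0906 (log2 fold change 0.60). Zfp36l2, whose product destabilizes AU-rich mRNAs, was at 0.68 (adjusted p = 0.15).

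Genes that feed back on the cascade gave 1 call among 10 tested (median 0.19). Dusp4, a phosphatase of nuclear MAP kinases, had 6.26, 5.31 and 5.13 CPM in WT and 2.14, 1.69 and 2.39 CPM in Ifnar1-/- monocytes. It was higher in every WT library (log2 fold change 1.42, SE 0.31, adjusted p = 0.0482), at a low level, and the call was lost without any 1 of the 6 libraries and with DESeq2. Of 27 textbook targets of AP-1 and EGR factors 25 were tested and 0 called by edgeR, DESeq2 or limma-voom, while 7 had an unadjusted p under 0.05, 4 of them higher in WT (median 0.21). Ccl4, a chemokine, was at 0.79 (adjusted p = 0.176) and Ptgs2, which encodes the inducible cyclooxygenase, at -0.55 (adjusted p = 0.179).

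Heat shock genes, which come on with the immediate early genes when tissue is dissociated, had a median of -0.09 over 12 tested, and 4 had an unadjusted p under 0.05, of which 2 were higher in WT. These 2 were Hspa1a and Hspa1b, the heat-inducible chaperone genes, with log2 fold changes of 0.93 and 1.07 (adjusted p = 0.242 and 0.177, edgeR), named here after their values were seen. Hspd1, a mitochondrial chaperone, was called lower in WT, with 54.9, 50.4 and 43.2 CPM against 88.3, 76.6 and 72.6 CPM (log2 fold change -0.68, SE 0.15, adjusted p = 0.0478). This call was lost without any 1 of the libraries WT 1, WT 2, WT 3, Ifnar1-/- 1 and Ifnar1-/- 3. No sample was spared dissociation and sorting, so levels before and after these steps cannot be told apart.

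**Figure D5:**
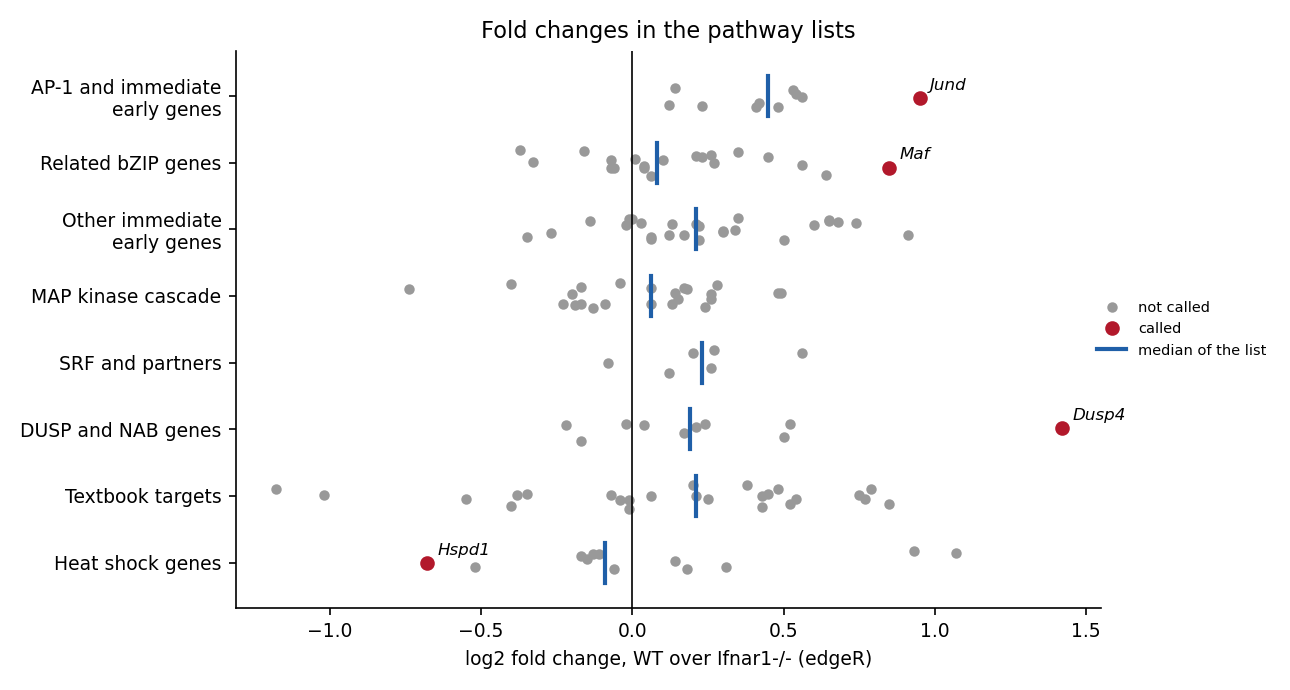
Log2 fold change, WT over Ifnar1-/-, of the genes tested in each pathway list (points), with called genes in red and named, and blue bars at the median of the list. The median of the 10 AP-1 and immediate early genes is 0.45, those of the other lists are between -0.09 and 0.23, and 1 gene is called in each of 4 lists, Jund, Maf, Dusp4 and Hspd1. The values are not corrected for GC content.

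The label of the cells was checked against marker genes, and the markers of other cells are given because some move with the genes above. The 10 monocyte markers summed to 8419 to 10397 CPM in WT and 8836 to 10007 CPM in Ifnar1-/- monocytes. Ly6c2, which encodes the antigen used for sorting, had 726, 788 and 640 CPM in WT and 177, 300.3 and 337 CPM in Ifnar1-/- monocytes (adjusted p = 0.00957), and Ccr2, the chemokine receptor of these cells, had 648, 694 and 587 CPM in WT and 1269, 794 and 905 CPM in Ifnar1-/- monocytes. The 10 T cell markers summed to 53.9, 21.9 and 53.1 CPM in WT and 24.4, 8.98 and 12.0 CPM in Ifnar1-/- monocytes. Of these 7 were tested, 7 had a positive log2 fold change (median 1.52), 0 were called by edgeR, DESeq2 or limma-voom and 6 had an unadjusted p under 0.05. In 4 of them every WT library was above every Ifnar1-/- library, which was the case for 11.1% of all genes tested. The T cell sum was thus lowest in library 2 of both groups, as were 9 of the 10 genes, and higher in WT, as was Jund. Its part in either result was not tested.

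Markers of other cells varied otherwise. The 11 neutrophil markers summed to 362, 742 and 2313 CPM in WT and 965, 767 and 2657 CPM in Ifnar1-/- monocytes, with Ly6g at 0 to 0.79 CPM, at about the 3 counts (0.41 to 0.662 CPM) below which a library gives no level. The 8 microglia markers summed to 257 to 330.1 CPM in WT and 297 to 374 CPM in Ifnar1-/- monocytes. The 6 dendritic cell markers summed to 20.2 to 27.8 CPM in WT and 12.9 to 24.7 CPM in Ifnar1-/- monocytes, and the 6 neural and glial markers to 45.1 to 61.5 CPM and 44.6 to 51.1 CPM. The B cell marker Pax5 and the oligodendrocyte marker Mog were at 0 in all 6 libraries. Mitochondrial ribosomal RNA took 12.3%, 14.2% and 17.6% of the counts in WT and 22.7%, 15.1% and 19.6% in Ifnar1-/- monocytes, lower in each WT library than in the same-numbered Ifnar1-/- library, and its part in the differences was not tested.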

How the data were processed

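RNA was sequenced from 3 WT and 3 Ifnar1-/- libraries of sorted CNS monocytes. The labels name a Takara SMARTer Stranded Total RNA-Seq pico kit and the methods of the study a TruSeq Stranded Total RNA kit. The submitters' processing notes name GRCm38, STAR 2.6.0c and RSEM 1.2.31. The authors deposited for each library and gene an RSEM expected count (estimated, not normalized), TPM (which sums to 1 fixed total per library) and FPKM, and the deposited FPKM values were not used for a result.

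Gene names, positions and GC content came from GENCODE M21, which matched 54165 of 54232 identifiers. Expected counts were rounded and compared between genotypes with the edgeR 4.0.16 quasi-likelihood test in R 4.3.3 (TMM, filterByExpr with a minimum count of 10, Benjamini-Hochberg over 11254 genes). Alternatives used DESeq2 1.42.0, limma 3.58.1 on log2(TPM + 1) or log2(TPM + 0.1), limma-voom, other filters, GC and length offsets, the replicate number as a block and each library left out. The rule of the calls is that of the study (adjusted p of at most 0.05, fold of at least 1.5). Patterns were compared on log2(CPM + 0.5). Single genes were also compared with exact permutation tests (scipy 1.17.1), which cannot go below 0.1 with 3 against 3. The edgeR script was tested on simulated counts. No library was a duplicate of another.

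The 10 genes and the gene lists were chosen with earlier results of these data known. The genes named were the 10, in each other list the called genes or, where none was called, the 2 with the smallest p, the 3 genes nearest to Fos and to Jun, Ifnar1, and the markers Ly6c2 and Ccr2 with markers at 0. Any further gene was chosen with its value in view. Floors of 3 counts cover counting error only. Promoter sequences came from RefSeq tables of GRCm38.p6.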

Additional observations from a re-analysis of the deposited data

How the results depend on the processing

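Of 20 alternatives, 1, leaving out both libraries numbered 2, was chosen after seeing the data. Fos, Fosb, Jun, Egr1 and Atf3 had a positive log2 fold change and were not called under any of the 20, but GC and length offsets lowered Fosb from 0.42 to 0.04, Jun from 0.54 to 0.23 and Egr1 from 0.56 to 0.20. The value turned negative with GC and length offsets for Fosl2 (-0.14), Junb (-0.01), Egr2 (-0.05) and Ier2 (-0.05), with the offsets and the replicate block for Fosl2 (-0.12), Egr2 (-0.05) and Ier2 (-0.04), and without Ifnar1-/- replicate 3 for Egr2 (-0.03, in a range of -0.03 to 0.32 with 1 library left out). None of these 4 genes was called under any of the 20. The call of Jund was lost, and 0 of the 10 genes were called, by limma on log2(TPM + 1) (0.92, adjusted p = 0.088) and on log2(TPM + 0.1) (0.92, 0.086), with GC and length offsets (0.41, 0.351), with these and the replicate block (0.41, 0.109), and without both libraries numbered 2 (1.09, 0.0532). With 1 library left out the log2 fold change of Jund ran from 0.74 to 1.14, and from 0 to 1 of the 10 genes were called. The cause was not tested.

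Over all genes, 240 were called, 188 higher and 52 lower in WT. DESeq2 called 419 (314 higher, 105 lower), the fit with no filter on low counts 872 (610 and 262), limma on log2(TPM + 1) 128 (112 and 16) and on log2(TPM + 0.1) 124 (111 and 13). GC and length offsets called 30 lower in WT, and the fit without both libraries numbered 2 called 13 lower. With 1 library left out, 119 to 245 genes were called, 110 to 204 higher and 7 to 41 lower. By list, the related bZIP genes had 0 calls with both limma fits on TPM and without both libraries numbered 2, and 0 to 1 with 1 library left out. The other immediate early genes had 2 calls with DESeq2, 6 with no filter, 1 with the replicate block, 2 with the block and DESeq2, 1 without both libraries numbered 2, and 0 to 2 with 1 library left out. The phosphatase and corepressor genes had 0 calls with DESeq2, limma-voom, both TPM fits, the replicate block with edgeR or DESeq2, the offsets with and without the block, without both libraries numbered 2, and with any 1 library left out. The targets had 5 calls with no filter, 1 with the replicate block and 5 with the offsets and the block. The heat shock genes had 0 calls with RLE normalization, limma-voom, both TPM fits, mitochondrial and ribosomal RNA genes removed, and the offsets, 3 with no filter, 2 with the block and DESeq2, 3 with the offsets and the block, 2 without both libraries numbered 2, and 0 to 2 with 1 library left out.

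The replicate numbers are not stated to mark shared mice. Deviations from the group means correlated at 0.0872, 0.0265 and 0.289 between libraries numbered 1, 2 and 3, and WT library 1 was closer to Ifnar1-/- library 2 (0.101). With the number as a replicate block, 182 genes were called higher and 38 lower, and Jund stayed called (0.92, adjusted p = 0.0342). The order of the genes per length kept 6 of 10 places with CPM per kilobase, and on the TPM scale 6 of the 10 genes nearest to Fos and 3 of those nearest to Jun were the same. At 3 libraries a group the intervals of Fos and Fosb remained wide, although each had at least 596 counts in every library.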
